A study of Mus musculus with 42 samples.

Results

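The 10 genes described here are H2-Aa, H2-Ab1, H2-Eb1, Cd74, C1qa, C1qb, Laptm5, Ly86, Tyrobp and Csf1r, which encode MHC class II molecules, complement C1q and proteins of macrophages. They were measured in mouse sensory ganglia. All probe sets, the groups of short probes that read a transcript on an Affymetrix array, were taken whose annotation names exactly 1 of these symbols. This gave 13 of 12488 probe sets on MG-U74Av2 arrays and 23 of 45101 on Mouse430_2 arrays, for 10 of 18337 genes in all. The samples came from BALB/c mice, an inbred strain, kept under standard housing with no other treatment, allele or age given in the labels. One experiment used whole dorsal root ganglion (DRG, 5 samples) and whole nodose ganglion (NG, 7 samples) on MG-U74Av2. The DRG holds spinal sensory neurons and the NG holds vagal sensory neurons of the viscera. For the other experiments about 150 visceral sensory neurons were cut from sections of each ganglion by laser capture microdissection for every sample. They were read on MG-U74Av2 in 5 DRG and 5 NG samples and on Mouse430_2 in 9 DRG and 11 NG samples. The labels call the labelled RNA of captured neurons amplified on MG-U74Av2 and total RNA in the other experiments. They give about 12 ug of RNA for every sample, also for captured neurons on Mouse430_2. Whether the RNA of those neurons was amplified too is therefore unsure. The sample descriptions speak of laser capture throughout, and the whole-ganglion samples were taken as such from their extraction protocol. Whether samples are separate animals is not said, so p-values cover the spread between samples, part of which may be technical.

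MHC class II molecules are pairs of an alpha and a beta chain that present peptides to CD4+ T cells. H2-Aa and H2-Ab1 encode the chains of I-A, and H2-Eb1 encodes the beta chain of I-E. Cd74 encodes the invariant chain, which fills the peptide groove until the molecule reaches the endosome. C1qa and C1qb encode chains of C1q, the recognition molecule of the classical complement pathway, which tissue macrophages make. Csf1r is the receptor for the macrophage growth factor CSF1, and Tyrobp (DAP12) is a signalling adaptor of myeloid receptors. Laptm5 is a lysosomal membrane protein of blood-derived cells. Ly86 (MD-1) is a secreted protein that binds Cd180, a relative of the Toll-like receptors. Sensory ganglia contain resident macrophages, which lie close to the satellite glia that wrap each neuron.

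Promoters of the class II genes share a short box pattern that the RFX and NF-Y factors bind together with the coactivator CIITA, so 3 reference promoters are shown. H2-Aa and Ly86 are the members called between the ganglia in every experiment, and H2-Eb1 is the other class II gene in the table. They run from 250 bases before to 50 after the start of the gene, 5′ to 3′ on the gene's strand, in RefSeq's table for GRCm38.p6, and BALB/c bases may differ, since BALB/c carries another H2 haplotype (d) than the reference strain C57BL/6J (b). The table held 5 of the 10 members. Capitals mark CTGATTGG, the Y box of class II promoters, searched on both strands.
H2-Aa, chr17:34287774-34288073, minus strand: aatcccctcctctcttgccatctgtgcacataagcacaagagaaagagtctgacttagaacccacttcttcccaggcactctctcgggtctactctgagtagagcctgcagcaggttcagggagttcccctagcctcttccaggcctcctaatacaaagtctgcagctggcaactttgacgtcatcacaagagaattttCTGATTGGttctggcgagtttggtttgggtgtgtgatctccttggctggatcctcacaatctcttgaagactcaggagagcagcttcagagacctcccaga
H2-Eb1, chr17:34305617-34305916, plus strand: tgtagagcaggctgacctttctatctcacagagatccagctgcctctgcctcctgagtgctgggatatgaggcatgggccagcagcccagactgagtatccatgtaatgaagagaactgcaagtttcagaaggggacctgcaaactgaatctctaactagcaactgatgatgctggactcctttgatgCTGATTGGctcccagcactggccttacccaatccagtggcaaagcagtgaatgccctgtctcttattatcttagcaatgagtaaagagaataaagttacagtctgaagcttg
Ly86, chr13:37345095-37345394, plus strand: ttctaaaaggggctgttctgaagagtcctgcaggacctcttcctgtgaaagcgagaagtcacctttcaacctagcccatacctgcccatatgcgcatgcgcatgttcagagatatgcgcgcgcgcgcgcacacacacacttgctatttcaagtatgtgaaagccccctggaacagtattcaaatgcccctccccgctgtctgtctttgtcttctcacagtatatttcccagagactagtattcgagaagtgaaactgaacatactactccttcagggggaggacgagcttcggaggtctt
CTGATTGG lay 51 to 44 bases before the start of H2-Aa and 62 to 55 bases before that of H2-Eb1. It was in 4.10% of all 32851 promoters of this length, and it includes ATTGG, which was in 37.4%. The window of Ly86 held neither, nor CAGATG (17.2% of promoters), GAGGAAGT (3.20%) or GAGGAA (28.3%). The last 2 are forms of the site bound by the myeloid factor PU.1, and shorter or other forms were not searched for. GAGGAA was found in the windows of C1qb and Laptm5. On the same assembly H2-Ab1, H2-Aa and H2-Eb1 lie in the class II region of chromosome 17, from 34263227 to 34316674. C1qb and C1qa are neighbours on chromosome 4, from 136880126 to 136898844.

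Values are signal intensities that the authors made with MAS5, here scaled so that every array of a type has the same trimmed mean. A signal is compared only with the same probe set on other arrays. To be tested, a probe set had to exceed the 40th percentile of an array in a number of arrays no smaller than the smaller group. That percentile was a signal of 34.6 to 47.0 in whole ganglia, 34.8 to 39.97 in captured neurons of that array type and 16.8 to 28.6 on Mouse430_2. Probe set names with the suffix x, s, f, i or r mark sets with probes that other transcripts may also bind, or with fewer specific probes. The brightest of a gene's probe sets stands for it. On the first principal component whole NG array 73 stood away from its group (7.07 against 16.7 to 24.0 for the others and -27.8 to -24.9 for DRG). Captured NG arrays 10 and 14 on MG-U74Av2 lay apart from arrays 3, 7 and 8 on the second (-26.0 and -23.3 against 11.0 to 17.96). In bulk samples, fewer cells of a type and less RNA per cell cannot be told apart.

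In whole ganglia, all 3 class II chain genes were higher in NG than in DRG. H2-Aa, the alpha chain of I-A, had signals of 174, 256, 282, 299 and 376 in the 5 DRG samples. The 7 NG samples had a lowest signal of 362, a median of 656 and a highest of 762. The groups overlapped by 1 sample on each side, NG 39 at 362 and DRG 70 at 376. The means were 621 ± 162 in NG and 277 ± 73.1 in DRG (SD, n = 7 and 5), log2 difference 1.12, SE 0.201, limma adjusted p = 0.000373. H2-Ab1, the matching beta chain, had signals of 51.1, 56.5, 58.7, 69.8 and 78.5 in DRG and a lowest signal of 78.6, a median of 95.4 and a highest of 144 in NG. Every NG sample of H2-Ab1 was above every DRG sample, the narrowest gap being 78.49 in DRG 19 against 78.58 in NG, and the difference was 0.54, SE 0.150, adjusted p = 0.00922 by limma. H2-Eb1, the beta chain of I-E, had signals of 116, 144, 155, 175 and 226 in DRG and a lowest signal of 196, a median of 214 and a highest of 264 in NG. DRG 84 lay inside the NG range, and the difference was 0.45, SE 0.137, adjusted p = 0.0157 by limma. Cd74, the invariant chain that escorts these molecules, was not called, with signals of 261, 412, 421, 428 and 511 in DRG and a lowest signal of 349, a median of 487 and a highest of 631 in NG (log2 difference 0.26, SE 0.168, limma adjusted p = 0.253, 95% interval -0.10 to 0.61). Its groups overlapped widely, so the class II chains and their chaperone were not called together.

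The 2 C1q genes gave different results in whole ganglia. C1qa had signals of 9.75, 12.4, 28.4, 30.5 and 58.0 in DRG, where only DRG 19 was above the 40th percentile of its array, and a lowest signal of 53.6, a median of 75.3 and a highest of 86.1 in NG, where all 7 were above it. DRG 19 overlapped the lowest NG sample. The difference was 1.22, SE 0.237, adjusted p = 0.000653 by limma, measured against DRG signals near background. C1qb, measured at 35.2, 50.7, 62.8, 69.9986 and 74.4 in DRG and 42.1 to 105 in NG, was not called (probe set 162276_i_at, log2 difference 0.06, SE 0.216, limma adjusted p = 0.864). Its other probe set, 96020_at, was not called either (0.31, SE 0.191, adjusted p = 0.229 by limma). C1qc, the gene of the third chain, which is not among the 10, was higher in NG (169 ± 31.7 in NG and 92.8 ± 23.7 in DRG, log2 difference 0.80, SE 0.165).

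Of the macrophage genes, Ly86 alone was called in whole ganglia, and it was lower in NG. Its signals were 172, 189.9, 246, 291 and 422 in DRG and had a lowest signal of 20.7, a median of 27.1 and a highest of 56.6 in NG. All 5 DRG samples were far above all 7 NG samples, and only NG 73 was above the 40th percentile of its array. The difference was -2.65, SE 0.213, adjusted p = 4.71e-08 by limma, and -2.76 without NG 73 (adjusted p = 2.44e-08). Csf1r, the CSF1 receptor, had signals of 87.3, 93.8, 108, 132 and 157 in DRG and a lowest signal of 91.8, a median of 161 and a highest of 251 in NG. NG 20, 26 and 36 lay inside the DRG range, and the difference just missed the threshold (log2 difference 0.52, SE 0.203, limma adjusted p = 0.0538). Without DRG 70 the adjusted p was 0.0304 and without NG 36 0.00718. A second Csf1r probe set, 161832_r_at, was not called (0.21, SE 0.173, adjusted p = 0.382). Laptm5, the lysosomal protein, had signals of 193, 236, 278, 326 and 372 in DRG and 204 to 319.7 in NG and was not called (log2 difference -0.08, SE 0.161, limma adjusted p = 0.749, 95% interval -0.42 to 0.26). Tyrobp, the DAP12 adaptor, was too dim to test, at 9.95, 13.8, 16.6, 16.7 and 32.1 in DRG and 8.31 to 45.1 in NG, with 2 of 7 NG and 0 of 5 DRG samples above the 40th percentile.

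Of the 9 members tested in whole ganglia, 4 were higher in NG and 1 was lower. Of all probe sets tested, 19.6% were higher and 15.8% lower in NG (35.4% in either direction). For H2-Ab1 and Ly86 the groups did not overlap, as for 9.42% of all probe sets with NG higher and 8.69% with DRG higher. The median difference of the tested members was 0.45, against 0.05 for all probe sets. NG took 55.3% of all calls, and 39.97% and 11.9% with a common median and with unscaled values. Those settings moved the median of all probe sets by -0.10 and -0.34. H2-Aa, C1qa and Ly86 were called under each of them. H2-Ab1 and H2-Eb1 stayed higher in NG but were not called on unscaled values (0.22, limma adjusted p = 0.561, and 0.10, 0.792). H2-Ab1 was not called either when the captured neurons were in the same limma fit (adjusted p = 0.0757). H2-Eb1 also lost its call without DRG 37 (0.35, adjusted p = 0.0548).

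**Figure D1:**
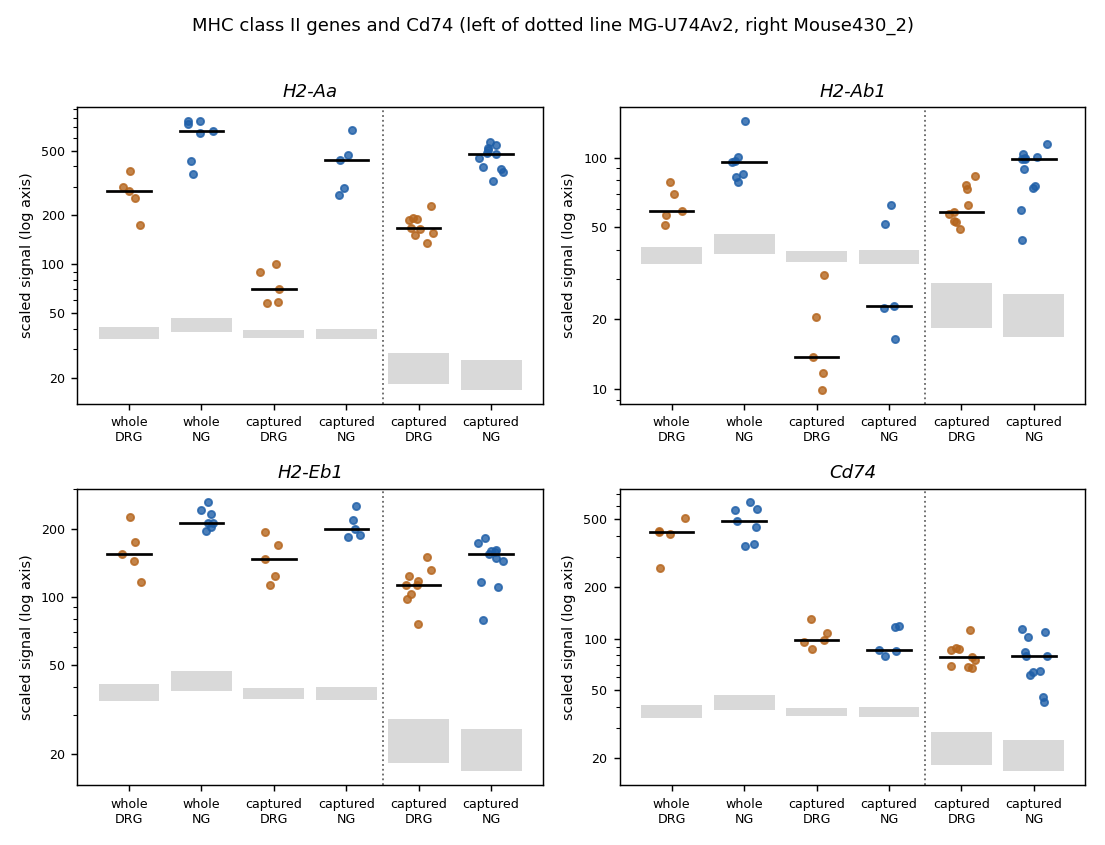
Scaled signal on a log axis of H2-Aa, H2-Ab1, H2-Eb1 and Cd74 in each sample of the 6 groups, DRG in brown and NG in blue, with the group median as a black line and the range of the arrays' 40th percentiles as a grey band. Signals left and right of the dotted line come from different array types and different probe sets and are not comparable. NG medians of H2-Aa are 656, 439 and 480.4, above DRG medians of 282, 70.6 and 167.

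In captured neurons on MG-U74Av2, H2-Aa was higher in NG and Ly86 in DRG, and no other member was called. H2-Aa had signals of 58.1, 58.9, 70.6, 90.2 and 101 in the DRG samples and of 267, 294, 439, 468 and 674 in the NG samples. Every NG sample was above every DRG sample. The means were 429 ± 163 and 75.8 ± 19.1 (SD, n = 5 each), log2 difference 2.29, SE 0.239, limma adjusted p = 9.65e-06. NG arrays 10 and 14, which lay apart, had 468 and 674, and arrays 3, 7 and 8 had 267, 294 and 439, so both sets of arrays were above DRG. Its partner chain H2-Ab1 was too dim to test, at 9.88, 11.7, 13.8, 20.5 and 31.2 in DRG and 16.5, 22.4, 22.9, 51.9 and 62.4 in NG. Only NG 3 and NG 14 were above the 40th percentile of their arrays for H2-Ab1. H2-Eb1 had signals of 113, 124, 148, 169 and 195 in DRG and 185, 189, 201, 219 and 253 in NG. Only DRG 6 reached the NG range, and the difference missed the threshold (log2 difference 0.47, SE 0.169, limma adjusted p = 0.0601). It was called without DRG 6 (adjusted p = 0.0333) and with the whole ganglia in the same limma fit (0.027). Cd74 had signals of 87.2, 96.3, 98.9, 108 and 130.3 in DRG and 79.5, 84.6, 86.2, 118 and 119 in NG, with wide overlap (log2 difference -0.09, SE 0.173, limma adjusted p = 0.743, 95% interval -0.46 to 0.28).

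Ly86 had signals of 60.3, 68.1, 81.5, 93.5 and 94.7 in captured DRG samples and of 6.32, 8.70, 10.5, 11.5 and 26.8 in NG samples. The groups did not overlap, and all 5 DRG samples but no NG sample were above the 40th percentile. The difference was -1.97, SE 0.248, adjusted p = 5.21e-05 by limma. C1qa was too dim to test, at 10.9, 16.8, 22.3, 33.3 and 45.7 in DRG and 7.41, 10.2, 11.9, 40.3 and 44.8 in NG, and Tyrobp was above the 40th percentile in 0 samples. C1qb ranged from 50.4 to 99.5 in DRG and from 37.2 to 110.4 in NG (log2 difference -0.03, SE 0.245, limma adjusted p = 0.946). Csf1r ranged from 59.8 to 83.6 and from 44.7 to 92.7 (log2 difference -0.07, SE 0.213, limma adjusted p = 0.842). Neither was called, and the intervals of their differences were -0.56 to 0.49 and -0.53 to 0.38. Laptm5 had signals of 162, 166, 193, 212 and 237 in DRG and 94.8, 227, 282, 288 and 339 in NG, where NG 3 was the lowest (log2 difference 0.23, SE 0.269, limma adjusted p = 0.583). Without NG 3 its difference was 0.52 (adjusted p = 0.0391).

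Of the 7 members tested in captured neurons on MG-U74Av2, 1 was higher and 1 lower in NG, beside 10.4% and 11.3% of all probe sets tested (21.8% in either direction). The groups of both did not overlap, which held for 7.94% of all probe sets with NG higher and 8.37% with DRG higher. The median difference of the 7 was -0.03, against 0.05 for all probe sets. NG took 47.9% of all calls, and 35.4% on unscaled values. H2-Aa and Ly86 kept their directions and calls there.

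Captured neurons on Mouse430_2, with other probe sets and more samples, gave the same 2 called genes among the brightest probe sets. H2-Aa had a lowest signal of 136, a median of 167 and a highest of 229 in the 9 DRG samples and a lowest signal of 324, a median of 480.4 and a highest of 562 in the 11 NG samples. The groups did not overlap, and the means were 456 ± 77.1 in NG and 175 ± 27.7 in DRG (SD, n = 11 and 9; probe set 1435290_x_at, log2 difference 1.34, SE 0.128, limma adjusted p = 7.87e-09). The other 2 tested probe sets of H2-Aa, 1438858_x_at and 1452431_s_at, also showed no overlap. Their differences were 1.79 (SE 0.163) and 1.25 (SE 0.137). All 3 carry a suffix for probes that other transcripts may bind, which the H2-Aa probe set of MG-U74Av2 (92866_at) does not. The fourth, 1443783_x_at, was too dim to test, with means of 6.74 in NG and 2.53 in DRG.

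H2-Ab1 had a lowest signal of 49.0, a median of 58.1 and a highest of 83.6 in DRG and a lowest signal of 44.1, a median of 98.3 and a highest of 115 in NG, with overlap, and was not called (1450648_s_at, log2 difference 0.41, SE 0.166, limma adjusted p = 0.0815). It was called after quantile normalization (adjusted p = 0.0182), with a common median (0.0165) and without NG 12 (0.0198). Its other 2 probe sets had mean signals under 6 in both groups. H2-Eb1 had a lowest signal of 75.8, a median of 113 and a highest of 151 in DRG and a lowest signal of 79.1, a median of 155 and a highest of 183 in NG (log2 difference 0.31, SE 0.155, limma adjusted p = 0.162). Cd74 had a lowest signal of 67.3, a median of 78.8 and a highest of 113 in DRG and a lowest signal of 43.0, a median of 79.1 and a highest of 114 in NG (log2 difference -0.11, SE 0.173, limma adjusted p = 0.711, 95% interval -0.47 to 0.24). The medians of Cd74 were nearly equal while that of H2-Aa was higher in NG, so the alpha chain and the invariant chain parted here too.

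Ly86 had a lowest signal of 67.0, a median of 117 and a highest of 219.7 in DRG samples and a lowest signal of 2.82, a median of 3.78 and a highest of 18.5 in NG samples on Mouse430_2. All 9 DRG samples and 0 of 11 NG samples were above the 40th percentile, with no overlap. The difference was -3.36, SE 0.222, adjusted p = 7.37e-12 by limma, with means of 133 ± 50.1 in DRG and 6.21 ± 5.17 in NG. C1qb ranged from 39.3 to 176 with a median of 115 in DRG. In NG 4 of its samples lay between 17.3 and 29.4 and the other 7 between 83.6 and 150.2, so NG held a wide and gapped range, and the gene was not called (1434366_x_at, log2 difference -0.51, SE 0.341, limma adjusted p = 0.324). A second C1qb probe set, 1437726_x_at, was lower in NG without passing (-0.81, SE 0.321, adjusted p = 0.0731). C1qa was above the 40th percentile in 2 of 9 DRG and 1 of 11 NG samples and was not tested.

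Laptm5 ranged from 71.1 to 256 in DRG and from 37.5 to 170.0 in NG (1447742_at, log2 difference -0.53, SE 0.237, limma adjusted p = 0.116). A dimmer probe set, 1459841_x_at, was called lower in NG (17.8 ± 10.03 against 32.8 ± 12.1, -0.70, SE 0.234, adjusted p = 0.0319 by limma). The 2 others tested were not called (-0.57, adjusted p = 0.234, and -0.06, 0.863), so the probe sets of Laptm5 did not give 1 answer. Csf1r ranged from 152 to 443 in DRG and from 87.2 to 543 in NG (1419872_at, log2 difference -0.29, SE 0.261, limma adjusted p = 0.483), and its other 2 tested probe sets had differences of 0.19 each. Tyrobp passed the filter on this array alone, with a lowest signal of 16.9, a median of 30.6 and a highest of 49.4 in DRG and a lowest signal of 8.06, a median of 22.2 and a highest of 46.5 in NG (log2 difference -0.27, SE 0.231, limma adjusted p = 0.453). Its signals lay in or near the band of the arrays' 40th percentiles in both ganglia.

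**Figure D2:**
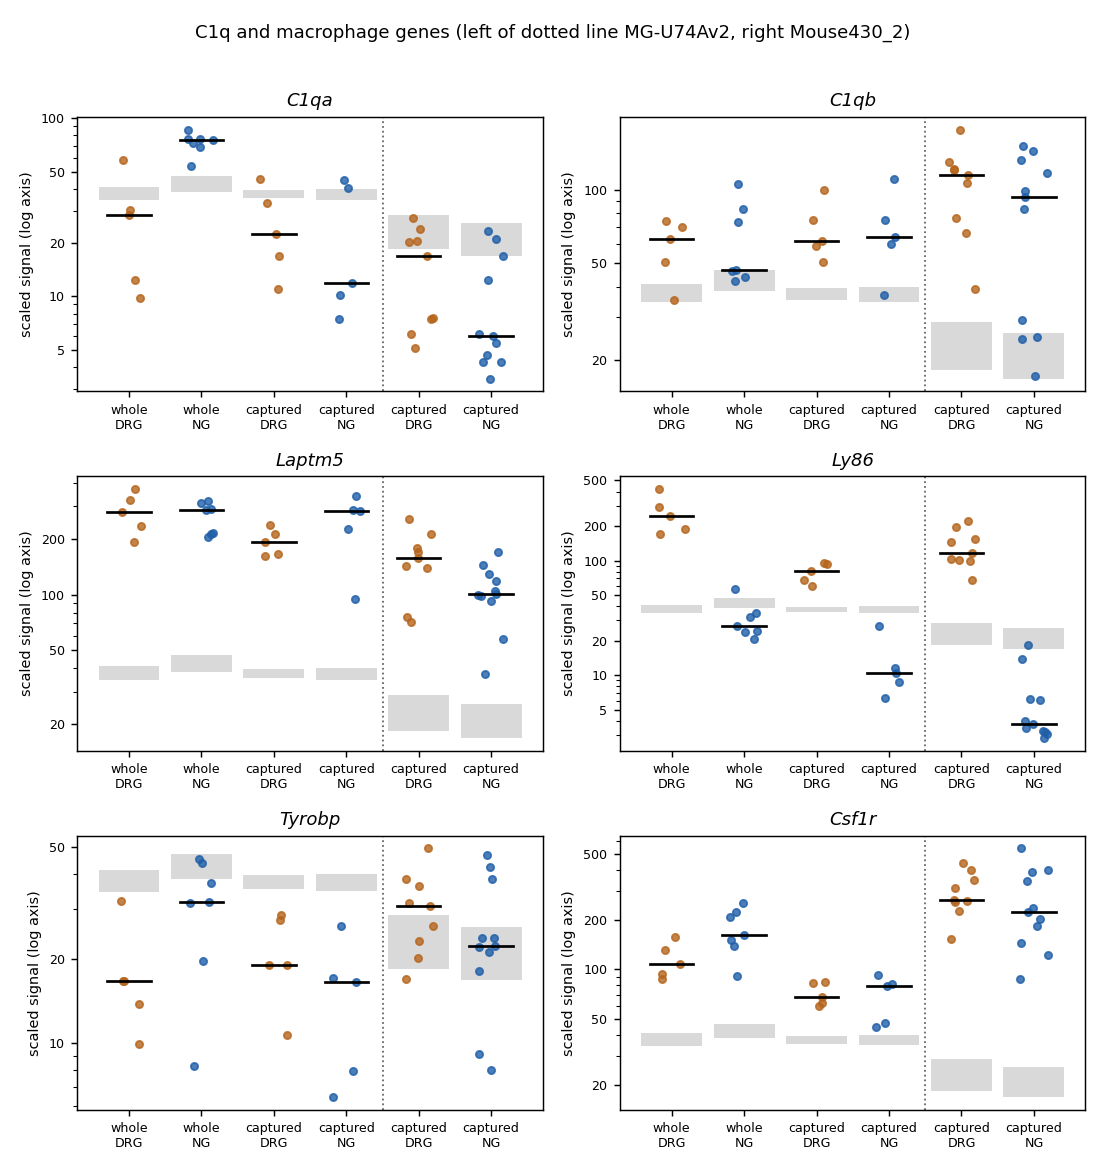
Scaled signal on a log axis of C1qa, C1qb, Laptm5, Ly86, Tyrobp and Csf1r in each sample, DRG in brown and NG in blue, with group medians as black lines and the range of the arrays' 40th percentiles as grey bands. The array types left and right of the dotted line are not comparable. Ly86 medians are 246, 81.5 and 117 in DRG and 27.1, 10.5 and 3.78 in NG, and Tyrobp stays in or under the grey band in nearly all samples on MG-U74Av2.

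Of the 9 members tested on Mouse430_2, 1 was higher and 1 lower in NG, beside 9.72% and 12.5% of all probe sets tested (22.2% in either direction). Neither gene's groups overlapped, which held for 1.58% of all probe sets with NG higher and 2.27% with DRG higher. The median difference of the 9 was -0.27, against -0.05 for all probe sets. Among all calls NG took 43.7%, against 63.5% with a common median and 24.4% on unscaled values, which moved the median of all probe sets by 0.14 and -0.12. H2-Aa and Ly86 kept their calls and directions under both. The 2 array types are not independent for captured neurons, because 5 DRG and 5 NG sample numbers occur on both. For each of those 10 the deviations from its group mean correlated best with its own number on the other array type (r 0.22 to 0.52 over 5329 genes, against at most 0.195 for any other number). Among the 6 NG and 4 DRG samples whose numbers occur only on Mouse430_2, H2-Aa differed by 1.30 (SE 0.198, limma adjusted p = 0.000306) and Ly86 by -3.48 (SE 0.325, 2.89e-06). Laptm5 differed by 0.19 (adjusted p = 0.736) in those samples and by -1.22 (0.00523) in the samples with shared numbers.

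**Figure D3:**
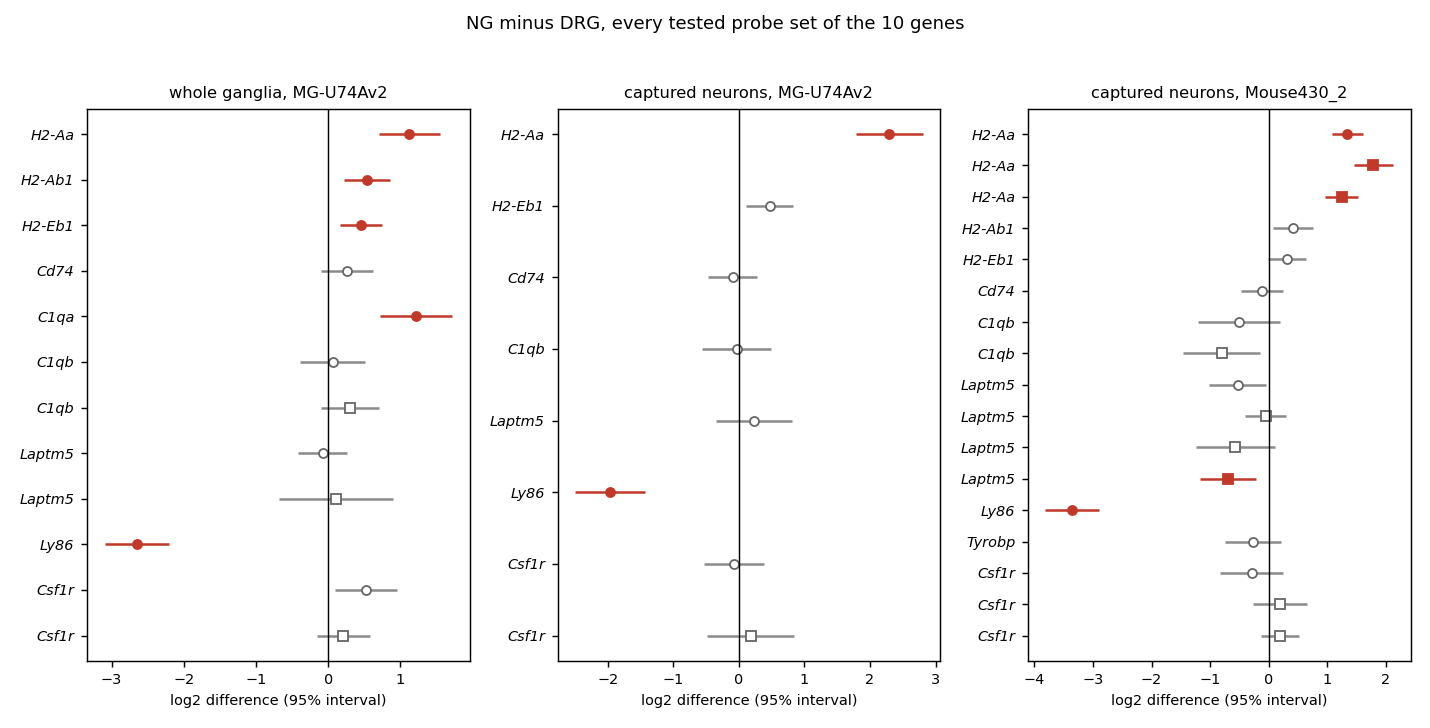
Log2 difference of NG minus DRG with its 95% interval for every tested probe set of the 10 genes in the 3 experiments. Circles are the probe set that stands for a gene and squares the others, and filled red symbols passed the limma threshold. H2-Aa lies right of 0 at 1.12, 2.29 and 1.34, Ly86 left of 0 at -2.65, -1.97 and -3.36, and C1qa is among the tested genes in whole ganglia only.

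Captured neurons were then set against whole ganglia on MG-U74Av2, in 1 limma fit of the 4 groups. Capture and RNA amplification go together here and cannot be told apart. In DRG, 5 of 9 tested members were lower in captured neurons and 0 were higher, beside 24.3% lower and 22.9% higher among all probe sets tested (47.2% in either direction). The 5 were Cd74 (-1.83, SE 0.179), H2-Aa (-1.71, SE 0.238), Ly86 (-1.54, SE 0.239), H2-Ab1 (-1.40, SE 0.243) and Csf1r (-0.60, SE 0.222). The groups did not overlap for any of the 5, which held for 19.9% of all probe sets with captured neurons lower. In NG, 6 of 9 were lower and 0 higher, beside 29.2% and 26.2% of all probe sets (55.3% in either direction). They were Cd74 (-2.19, SE 0.166), C1qa (-1.44, SE 0.300), H2-Ab1 (-1.31, SE 0.225), Csf1r (-1.20, SE 0.206), Ly86 (-0.84, SE 0.222) and H2-Aa (-0.55, SE 0.220). Ly86 passed the filter through the DRG groups and lay near background in NG, above the 40th percentile in 1 of 7 whole and 0 of 5 captured samples, so its value in NG compares dim signals. For 3 of the 6 the groups did not overlap, beside 16.3% of all probe sets. H2-Ab1 passed the filter through the whole ganglia. It was above the 40th percentile in all whole samples, but in 0 of 5 captured DRG and 2 of 5 captured NG samples. C1qa was above it in 7 of 7 whole and 2 of 5 captured NG samples. The drops of H2-Ab1, and of C1qa in NG, are thus measured against captured groups near background. The median difference of the 9 members was -0.60 in DRG and -0.84 in NG, against 0.03 and 0.02 for all probe sets. The median in NG is the value of Ly86 itself.

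Cd74 fell in both ganglia, from 406 ± 90.7 to 104 ± 16.4 in DRG and from 488 ± 109 to 97.4 ± 19.3 in NG. H2-Eb1, another class II gene, was not called in either ganglion (-0.11, SE 0.158, adjusted p = 0.587 in DRG and -0.09, SE 0.146, adjusted p = 0.605 in NG, by limma). Among the 4 class II genes the difference thus ran from near 0 for H2-Eb1 to a 4.55-fold drop for Cd74 in NG. For C1qb and Laptm5 the probe sets disagreed. C1qb was not called by 162276_i_at (0.20 in DRG, 0.11 in NG) but was lower by 96020_at (-0.93 and -1.42). Laptm5 was not called by 161819_f_at (-0.49 and -0.18) but was lower by 100012_at (-1.59 and -1.52). In each pair the probe set that was not called carries a suffix for shared or fewer specific probes. The second Csf1r probe set, 161832_r_at, was not called (-0.40 and -0.43), unlike 104354_at. The call of Csf1r in DRG was lost in 7 alternatives, among them without whole DRG 70 (adjusted p = 0.0926). The call of H2-Aa in NG was lost in 9, among them without whole NG 73 (0.0692) and without captured NG 3 (0.131). The share of captured-higher calls was 48.5% in DRG and 47.3% in NG, 17.9% in DRG on unscaled values and 60.9% in NG with a common median.

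The interaction, which is the NG minus DRG difference in captured neurons minus that in whole ganglia, was called for 2 of 9 tested members, 1 positive and 1 negative. Of all probe sets tested, 7.71% were positive and 10.5% negative (18.2% in either direction). For H2-Aa it was 1.16 (SE 0.324, limma adjusted p = 0.0122). Its signal was lower in captured than in whole samples by more in DRG (-1.71) than in NG (-0.55). For C1qa it was -1.42 (SE 0.441, adjusted p = 0.024), but C1qa was near background in both captured groups and in 4 of 5 whole DRG samples. Its call was lost in 5 alternatives, among them without whole DRG 84, without whole DRG 37 and without captured DRG 6 (adjusted p = 0.0538, 0.0534 and 0.0533). The interaction was not called for Ly86 (0.71, SE 0.326, adjusted p = 0.137), Csf1r (-0.60, SE 0.303, adjusted p = 0.182) or Cd74 (-0.35, SE 0.244, adjusted p = 0.345). Ly86 lay near background in NG, so its interaction depends on the pseudocount. With the pseudocount at the 40th percentile it was called (0.87, limma adjusted p = 0.0093).

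**Figure D4:**
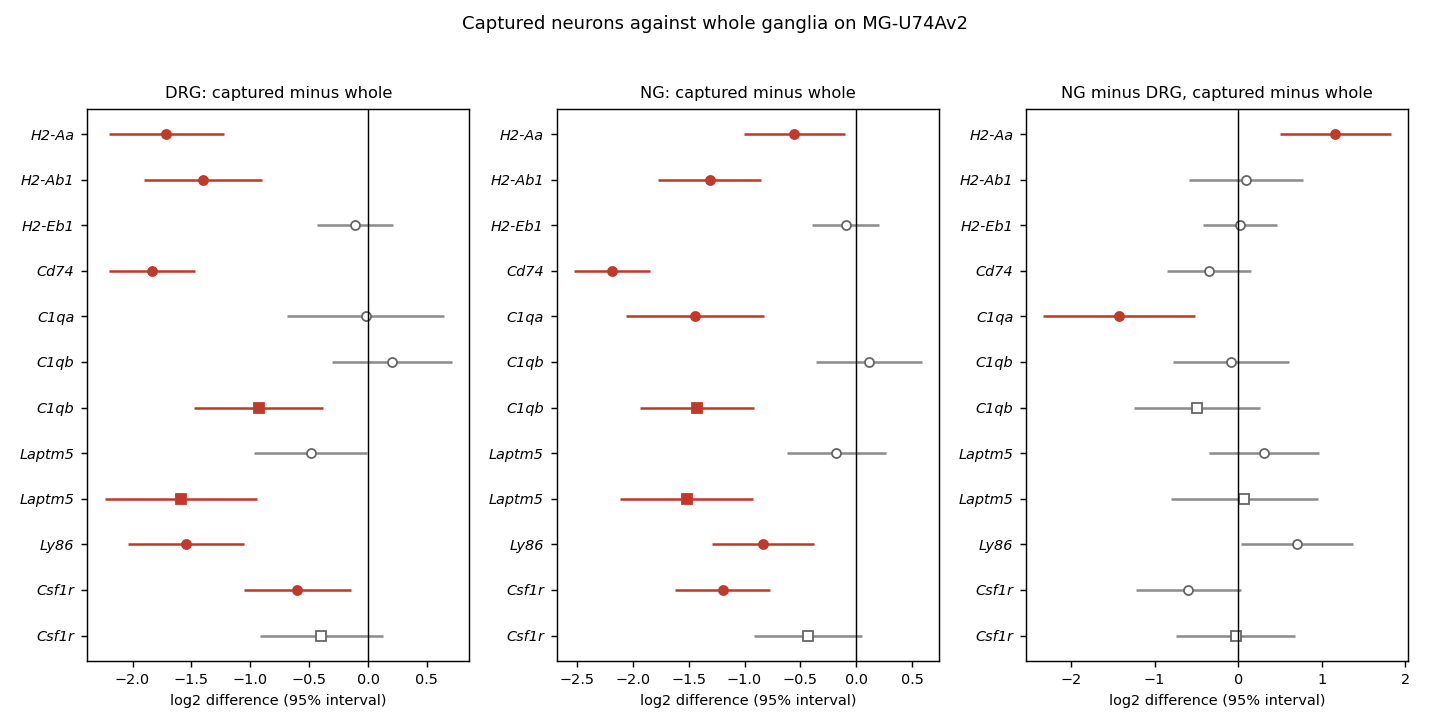
Log2 difference of captured neurons minus whole ganglia within DRG and within NG, and the interaction, with 95% intervals, for each tested probe set of the members on MG-U74Av2. Circles are the probe set that stands for a gene and squares the others, and filled red symbols passed the limma threshold. Cd74 lies at -1.83 and -2.19, H2-Eb1 near 0 in both ganglia, and the interaction of H2-Aa at 1.16.

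On MG-U74Av2 the groups' median H2-Aa signals stood in the order whole NG (656), captured NG (439), whole DRG (282) and captured DRG (70.6). Captured NG and whole DRG overlapped (267 to 674 and 174 to 376), as did whole and captured NG, while captured DRG lay below every other group. For Ly86 the order was whole DRG (246), captured DRG (81.5), whole NG (27.1) and captured NG (10.5). Captured DRG neurons thus had more Ly86 signal than whole NG (60.3 to 94.7 against 20.7 to 56.6), with no overlap. Whole and captured NG overlapped and lay near background. Captured NG was called lower by limma (-0.84), but that call compares dim signals and does not settle their order.

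The rest of the class II pathway, from a list of its genes, was mostly not called. In whole ganglia 1 of 8 tested genes was higher in NG, Ctss, the cathepsin that trims the invariant chain (275 ± 37.3 in NG and 133 ± 27.6 in DRG, log2 difference 0.999, SE 0.135), and 0 were lower. Ciita, the class II coactivator, was not called there (0.11, SE 0.274), in captured neurons on MG-U74Av2 (0.29, SE 0.161) or on Mouse430_2 (-0.50, SE 0.249). H2-DMa, which loads peptide onto class II molecules, was not called either (-0.25, 0.26 and 0.29). In captured neurons 1 of 8 genes on MG-U74Av2 and 1 of 12 on Mouse430_2 was lower in NG and 0 were higher. Both times it was Lgmn, an endosomal protease (-1.22 and -1.07). The list's median differences were 0.13, 0.20 and -0.12, beside 0.05, 0.05 and -0.05 for all probe sets. For MHC class I genes the calls ran in 1 direction, in which 3 of 8 were higher in NG in whole ganglia, 3 of 8 in captured neurons on MG-U74Av2 and 5 of 10 on Mouse430_2, and 0 were lower in any of them. On unscaled values the counts were 0, 3 and 2, with 0 lower. Among them H2-D1, a class I heavy chain, had signals of 3371 ± 408 in NG and 1882 ± 29.1 in DRG on MG-U74Av2 (log2 difference 0.83, SE 0.103) and 2170.2 ± 315 in NG and 1142 ± 193 in DRG on Mouse430_2 (0.93, SE 0.106). Psmb9, an immunoproteasome subunit that makes class I peptides, was higher in whole NG (0.75) and on Mouse430_2 (0.81).

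Of the complement list, 4 of 10 tested genes were higher and 2 lower in whole NG, 1 and 3 of 11 in captured neurons on MG-U74Av2, and 0 and 2 of 11 on Mouse430_2. On unscaled values 0 were higher and 3 lower in whole NG. C1qc was also higher in NG among captured neurons on that array type (123 ± 49.5 in NG and 44.7 ± 30.7 in DRG, 1.34, SE 0.347) and not tested on Mouse430_2, where its means were 4.29 and 2.41. The inhibitors Cd55 and Serping1 were lower in NG in all 3 experiments. Cd55, which breaks up C3 convertases, differed by -1.84, -1.32 and -1.88, and Serping1, the C1 inhibitor, by -0.62, -1.07 and -0.74. C1ra, a protease of the C1 complex, and the receptor Cd93 were higher in whole NG (0.69 and 0.73).

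The macrophage label was checked against a list of macrophage and monocyte genes. On MG-U74Av2 only 15 of 32 in whole ganglia and 13 of 32 in captured neurons passed the filter, and on Mouse430_2 26 of 40. The defining markers Adgre1 (F4/80), Aif1 (Iba1), Itgam (CD11b) and Ptprc (CD45) did not pass in whole ganglia, with mean signals of 11.7, 11.7, 5.78 and 13.4 in NG and 6.97, 6.60, 4.85 and 4.76 in DRG. Aif1, Itgam and Ptprc did not pass in captured neurons on either array type, and Adgre1 passed on Mouse430_2 only. Called higher in NG were 2 of the 15 (Ctsc and Lyz2) in whole ganglia, 1 of 13 (Syk, a kinase downstream of myeloid receptors) in captured neurons on MG-U74Av2 and 2 of 26 (Syk and Coro1a) on Mouse430_2. Ctsc and Lyz2 were not called under any of the 3 other scalings. The summed signal of the list was lower in whole NG (2124 to 2540.1 against 2984 to 3485 in DRG), with no overlap here or under the other scalings, and the sums overlapped in captured neurons on both array types. In whole ganglia the medians of that sum were 2301 in NG and 3298 in DRG. The means of 1 bright gene, Lcp1 (257 in NG and 1302 in DRG), lay at least as far apart as these medians. The median log2 difference of the list's tested genes there was 0.09, so the sum does not describe the list as a whole. Called lower were 1, 1 and 2, Lcp1 in each experiment and Adgre1 on Mouse430_2. Lcp1 (plastin 2), an actin-bundling protein of blood-derived cells, was lower in NG in each experiment, as Ly86 was (-2.30, -1.99 and -2.34), and its signals in whole ganglia were 257 ± 42.2 in NG and 1302 ± 117 in DRG. Cd180, the receptor that Ly86 binds, did not pass the filter on MG-U74Av2 and was not called on Mouse430_2 (35.3 ± 10.9 in NG and 40.2 ± 11.5 in DRG, -0.16, SE 0.188).

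Markers of other cells also moved with the ganglion. In captured neurons the summed signal of the satellite glia and Schwann cell genes was 13029.5 to 13948 in NG and 15170.0 to 17587 in DRG on MG-U74Av2, where 4 of 12 tested genes were lower in NG and 0 higher. On Mouse430_2 the sums were 15079 to 18133 and 18190.5 to 22351, with 6 of 16 lower and 1 higher. The sums did not overlap on either array type and were higher in DRG, the direction of Ly86 and opposite to H2-Aa. They overlapped on unscaled values, and on Mouse430_2 also with a common median. In whole ganglia the glial sums overlapped (18221 to 22894 in NG and 17557 to 21285 in DRG), with 2 of 13 tested genes higher in NG and 2 lower. In whole ganglia the endothelial genes summed to 1680.1 to 3245 in NG and 1122 to 1583 in DRG, with 6 of 9 tested genes higher in NG and 0 lower, the direction of H2-Aa and C1qa. On unscaled values 0 of these genes were called. In captured neurons the endothelial genes did not keep to that direction. There 1 of 7 tested was higher in NG and 2 lower on MG-U74Av2, and 3 of 12 were higher and 1 lower on Mouse430_2. Of the T and B lymphocyte genes, 0 of 5, 0 of 6 and 0 of 10 tested were higher in NG in the 3 experiments and 0, 2 and 1 were lower. Of the dendritic cell genes 0 of 6, 0 of 5 and 0 of 4 were higher and 1 was lower each time, and of the neutrophil and mast cell genes 0 of 7, 0 of 5 and 0 of 7 were higher and 4, 2 and 2 lower. The summed signal of the neutrophil and mast cell genes was lower in NG without overlap in each experiment, the direction of Ly86, at 629 to 864 against 1425 to 1874 in whole ganglia, 505 to 669 against 912 to 1507 in captured neurons read on MG-U74Av2 and 221 to 455 against 749.7 to 1385 on Mouse430_2. It stayed so under the 3 other scalings. In that list Kit, which some sensory neurons also express, had signals of 221 ± 104 in NG and 727 ± 90.6 in DRG in whole ganglia. This 1 gene made up a large part of the gap between the sums there. Kit was also lower in NG in captured neurons on both array types. Of the sensory neuron genes 4 of 12, 2 of 11 and 4 of 15 were higher and 2, 1 and 4 lower, and of the fibroblast genes 1 of 10, 0 of 8 and 0 of 9 were higher and 2, 1 and 2 lower. Captured samples kept signal of other cells. Of 13 tested glial genes, 6 were lower and 3 higher than in whole DRG, and 9 lower and 1 higher than in whole NG, while 8 and 9 of 10 fibroblast genes were lower. Of 9 tested endothelial genes, 3 were lower and 0 higher than in whole DRG, and 6 lower and 1 higher than in whole NG. The sensory neuron genes did not rise as a group. Of 12 tested, 5 were higher and 4 lower in captured DRG, and 6 higher and 5 lower in captured NG. The part of these cells in the members' differences was not tested.

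Across samples of a group the members did not rise and fall as a block. On Mouse430_2, over the 20 arrays and after subtracting group means, the correlation of each member with the mean of the other 9 was highest for Cd74 (r = 0.65), then Ly86 (0.40), H2-Aa (0.38), Csf1r (0.35) and C1qb (0.22), and lowest for Laptm5 (-0.21). By the same measure the genes most like the mean of the members were Plac8l1 (r = 0.84), Arglu1 (0.82), Scyl2 (0.82), Dtx3 (0.81) and Zfp383 (0.81), of which 4 were not called between the ganglia and Zfp383 was lower in NG (-0.91, SE 0.232, limma adjusted p = 0.00468). These genes are the top of a search among the 28107 probe sets tested, and what such a search gives by chance was not tested. The mean also includes C1qa, which was too dim to test on this array type. Of 12 relations computed between the class II set, the C1q set and the set of Laptm5, Ly86, Tyrobp and Csf1r, 1 passed adjustment. In the 12 whole-ganglion samples, deviations of the class II set and of the set with Csf1r had Spearman's rho of 0.78 (permutation p = 0.00377, adjusted p = 0.0452), but Pearson's r of 0.66 did not pass (permutation p = 0.0189, adjusted p = 0.227), and r was 0.74 without the 2 samples farthest from the median. The same pair gave r = -0.0006 (n = 10, permutation p = 0.999) and r = 0.27 (n = 20, permutation p = 0.255) in captured neurons on the 2 array types. The set with Csf1r also averages in Tyrobp, which was too dim to test on MG-U74Av2, and Ly86, which lay near background in NG. All samples of an experiment share their array type and scaling, and the other 9 relations had adjusted p-values of at least 0.310.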

How the data were processed

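Each array's deposited values are linear signal intensities of its probe sets, for which the submitters' processing notes name MAS5. Neither its version nor any scaling by the authors is given in the sources used here. Trimmed means (2% off each end) spanned 174.9 to 408.3 in whole ganglia, 187.7 to 274.5 in captured neurons of the same array type and 84.2 to 200.5 on Mouse430_2, so each array was scaled to the mean of its type. MAS5 subtracts mismatch signal, and dim probe sets then scatter around background. Detection calls were not used here. Precision is limited by the number of arrays.

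Signals were analysed as log2(signal + pseudocount), where the pseudocount was the 20th percentile of an experiment (11.7, 11.0 and 7.48, and 11.4 for the 4 groups on MG-U74Av2 together), so fold differences of dim genes are understated. After the filter given above, 7698, 7583, 28107 and 8309 probe sets were tested with limma (version 3.58.1), by lmFit and then a robust eBayes with an intensity trend, under R 4.3.3 and data.table (version 1.17.8). Tests were two-sided with Benjamini-Hochberg adjustment over all probe sets tested and a threshold of 0.05, at which a probe set was called. Fits were tested on simulated data. Relations between gene sets used 100000 permutations of deviations from group means. Samples were grouped by their titles, whose sample numbers name them here.

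The members and gene lists were chosen with earlier results of these data known. All 10 members are reported with every probe set. Per list and experiment, up to 3 genes per direction were named among those called, and Ciita, H2-DMa, Cd180 and the defining macrophage markers were named after their values were seen. The 5 genes most like the members had the highest correlation with their mean. Alternatives covered scaling, pseudocount, filter, eBayes settings, each sample left out, replicate blocks, a joint fit and a split by shared sample numbers, and the scaling of the lists was added after seeing the data. The figures were drawn in Python 3.11.15 with matplotlib 3.10.9.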

Additional observations from a re-analysis of the deposited data

Results flagged for a closer look

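Of 50 groups of 4 to 10 samples tested for a sample far from the others, 1 stood out, and chance gives about 1 in 20. NG sample 23 of whole ganglia had an H2-Ab1 signal of 144, against 78.6 to 100.4 in the other NG samples, and its gap to the nearest was 0.605 of the group's range. Without it the difference of H2-Ab1 between the whole ganglia was 0.45 (limma adjusted p = 0.0172).

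The ganglion difference of H2-Aa was larger in captured neurons than in whole ganglia, by 1.16 on the log2 scale (limma adjusted p = 0.0122 for the interaction). That of C1qa was smaller, by -1.42 (adjusted p = 0.0240). C1qa signals lay near background in both captured groups and in most whole DRG samples, and capture cannot be told apart from RNA amplification here.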

How the results depend on the processing

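The calls of H2-Aa and Ly86 between the ganglia held in all 3 experiments under every alternative that gave a value (Ly86 on MG-U74Av2 captured neurons has none under the stricter filter), and no difference changed sign where it was called in either setting. Ly86 passed the filter through the DRG samples in each experiment, and C1qa in whole ganglia through the NG samples. Their differences are thus measured against a group near background, and the alternatives do not change that. Differences that were not called changed sign in 50 of 1417 member results under alternatives, among them Laptm5 on Mouse430_2 (-0.53, and 0.19 in samples without shared numbers). Of the results for single members under alternatives other than leaving a sample out, 449 kept their side of the threshold, 9 lost a call and 7 gained one. When samples were left out in turn, 927 kept it, 16 lost a call and 9 gained one. All 24 alternatives of the relations kept their side by Pearson's r, by which no relation passed in the main setting. The 1 relation that passed by Spearman's rho was not scored under the alternatives, so they do not bear on it.

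These counts of members called moved by more than 1.5 times. In whole ganglia, 2 rather than 4 were higher in NG on unscaled values. In captured neurons on MG-U74Av2, 0 rather than 1 were lower under the stricter filter, 2 rather than 1 were higher with all 4 groups fitted together, and 1 to 2 were higher when a sample was left out (2 without DRG 6 or without NG 3). On Mouse430_2, 2 rather than 1 were higher after quantile normalization and with a common median, 2 rather than 1 were lower among samples with shared numbers, and leaving out a sample gave 1 to 2 higher (2 without NG 5 or NG 12) and 1 to 2 lower (2 without DRG 11). For the interaction, 0 rather than 1 were lower after quantile normalization, on unscaled values and under the stricter filter, 2 rather than 1 were higher with the pseudocount at the 40th percentile, and leaving out a sample gave 0 to 1 lower (0 without whole DRG 37, whole DRG 84 or captured DRG 6). Smaller moves were 3 to 5 higher in whole NG other than on unscaled values, and 4 to 6 lower in DRG and 4 to 7 lower in NG for captured against whole. The cause was not tested. The other scalings moved the median of all probe sets by 0.16 (captured against whole NG) and 0.12 (interaction) with a common median and by -0.27 (captured against whole DRG) and 0.27 (interaction) on unscaled values, and the positive share of the interaction calls went from 42.4% to 59.9% and 69.3%.

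Same-numbered NG and DRG samples did not all deviate together (r -0.106 to 0.111 over 4 numbers on MG-U74Av2 and -0.154 to 0.155 over 7 on Mouse430_2), so the numbers were not taken to pair the samples, and what they mark is not stated. With a fixed replicate block in those samples, 1059 rather than 1196 probe sets were called on MG-U74Av2 and 4003 rather than 4240 on Mouse430_2. Members called stayed at 1 higher and 1 lower, with H2-Aa at 2.46 and 1.28 and Ly86 at -1.85 and -3.41. No paired analysis was possible in whole ganglia because the groups share only 1 number.

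Limits: Tyrobp and captured-neuron H2-Ab1 on MG-U74Av2, C1qa in captured neurons, Ly86 in NG and most of the defining macrophage markers lay near background. Differences in them are thus poorly measured. Probe sets of C1qb, Laptm5 and Csf1r disagreed. Capture cannot be told apart from amplification on MG-U74Av2.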

Other observations

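Some genes that are no members, and were singled out after their values were seen, had large differences in captured neurons. Tlr4, the receptor for bacterial lipopolysaccharide and a relative of Cd180, had a signal of 89.95 ± 44.9 in DRG and 4.24 ± 2.34 in NG on Mouse430_2 (SD, n = 9 and 11) but did not pass the filter and was not tested. Syk, a kinase downstream of Tyrobp, had 199.7 ± 66.5 in NG and 63.2 ± 26.6 in DRG on Mouse430_2. Kit, the stem cell factor receptor of mast cells and some sensory neurons, was lower in NG in whole ganglia (-1.76) and in captured neurons on MG-U74Av2 (-2.65) and Mouse430_2 (-2.83).

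Between captured and whole samples on MG-U74Av2, Ctss, the protease that cuts the invariant chain, fell by 0.97 in DRG and by 1.97 in NG on the log2 scale. Lyz2, lysozyme of macrophages, and Mrc1, the mannose receptor, fell in both ganglia as well. The macrophage and monocyte list did not fall as a whole. Of its 17 tested genes, 5 were lower and 2 higher in captured than in whole DRG, and 6 lower and 3 higher in NG. Its median log2 differences were -0.18 and -0.16. Lgmn was higher in captured than in whole DRG (1.34), against the direction of most members.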
